A study of Homo sapiens with 12 samples.

Results

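Amino acid transporters carry nutrients across the plasma membrane, and growing lymphoma cells depend on them for leucine, glutamine, arginine and cystine. The 10 transporter genes described here were SLC7A5, SLC3A2, SLC7A11, SLC7A6, SLC7A1, SLC43A1, SLC1A5, SLC1A4, SLC38A1 and SLC38A2. They were found by symbol in the count table, 10 of 26364 genes, and all 10 were among the 15087 genes tested.

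The study measured polyA RNA of 2 lymphoma lines, both kept in RPMI1640 with serum, by bulk sequencing. The 4 groups were JeKo-1 with 4 µM chidamide, JeKo-1 with vehicle, Granta-519 with 4 µM chidamide and Granta-519 with vehicle, all collected after 12 h. Chidamide is a benzamide inhibitor of histone deacetylases, and both lines are known as models of mantle cell lymphoma. Each group had 3 libraries, 12 in all; nothing states that the 3 were separate cultures, and the p-values reflect spread among libraries that could be technical.

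Library totals ran from 12873642 to 16592694 counts. The B cell markers were present in every group, with a summed level of 8041.1 to 11851.9 CPM (counts scaled to library size by TMM). The mantle cell lymphoma markers were nearly absent under the label JeKo-1: SOX11 had no count in those libraries, and CCND1 and SOX11 together had 0.783 to 1.06 CPM with chidamide and 0.0828 to 0.150 CPM with vehicle. In Granta-519 the same sum was 1762.3 to 1946.3 CPM with chidamide and 2218.2 to 2317.8 CPM with vehicle. JeKo-1 therefore stands here for the label alone. The sum of the 7 myeloid markers was 36.3 to 37.2 CPM in JeKo-1 with chidamide, against 1.82 to 4.03 CPM with vehicle. It was 95.7 to 103.5 CPM in Granta-519 with chidamide, against 26.3 to 26.5 CPM with vehicle. ITGAM and CSF1R made up most of that sum in the chidamide groups, while CD14 stayed at 0.465 CPM or less and S100A8 and MPO at or near 0 in every group. LYZ had 3.46 CPM in JeKo-1 with chidamide, against 0.335 CPM with vehicle. T and NK cell markers were low but also higher with the drug, with sums of 5.905 to 8.094 CPM in JeKo-1 with chidamide, against 2.734 to 4.724 CPM with vehicle. Their Granta-519 sums were 3.661 to 4.932 CPM with chidamide, against 0.800 to 1.202 CPM with vehicle. Erythroid markers summed to 0 to 1.34 CPM. Epithelial and stromal markers summed to 30.01 to 34.18 CPM in JeKo-1 with chidamide, against 25.1 to 28.2 CPM with vehicle. The same markers summed to 65.6 to 70.6 CPM in Granta-519 with chidamide, against 58.0 to 63.8 CPM with vehicle. COL1A1 made up most of the epithelial and stromal sum, with 31.59 CPM in JeKo-1 with chidamide and 26.72 CPM with vehicle. In Granta-519 COL1A1 had 65.65 CPM with chidamide and 59.64 CPM with vehicle. The other epithelial and stromal markers had group means of 1.70 CPM or less. The part of all these markers in the results was not tested. Replicate 2 of JeKo-1 with vehicle differed most from its own group, and results are given without it where that matters. In bulk RNA, fewer cells of a type and less RNA per cell cannot be told apart.

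As background, SLC7A5, SLC7A6 and SLC7A11 are light chains that reach the surface only when bound to the heavy chain SLC3A2. With SLC7A5 the pair takes up leucine and other large neutral amino acids in exchange for glutamine, and the leucine is sensed by the kinase complex mTORC1. With SLC7A11 the pair exchanges glutamate for cystine, the precursor of glutathione. SLC1A5 and SLC38A2 bring in glutamine and other small neutral amino acids. Several of these genes are known targets of ATF4, the transcription factor of the amino acid response, or of MYC.

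In JeKo-1 with chidamide, 7 of the 10 transporters fell and 3 rose. The glutamine and neutral amino acid exchanger SLC1A5 fell 2.54-fold and the leucine light chain SLC7A5 fell 2.22-fold, while the sodium-coupled transporter SLC38A2 rose 2.44-fold. In Granta-519, 7 fell and 1 rose by smaller amounts, and SLC7A5 and SLC38A2 did not pass the test. Of all tested genes, 66.4% passed the threshold (adjusted p under 0.05, edgeR) in JeKo-1 and 70.9% in Granta-519, so passing it is common. Calls in the higher direction made up 35.3% of tested genes in JeKo-1 and 39.6% in Granta-519, and calls in the lower direction 31.1% and 31.3%. The median log2 change of the 10 genes was -0.71 in JeKo-1 and -0.23 in Granta-519, beside 0.04 and 0.08 over all tested genes. Falls of at least 2-fold past the threshold were rarer, 2.65% of tested genes in JeKo-1, and SLC7A5 and SLC1A5 were among them; rises of at least 2-fold, such as that of SLC38A2, made up 17.1%.

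**Figure D1:**
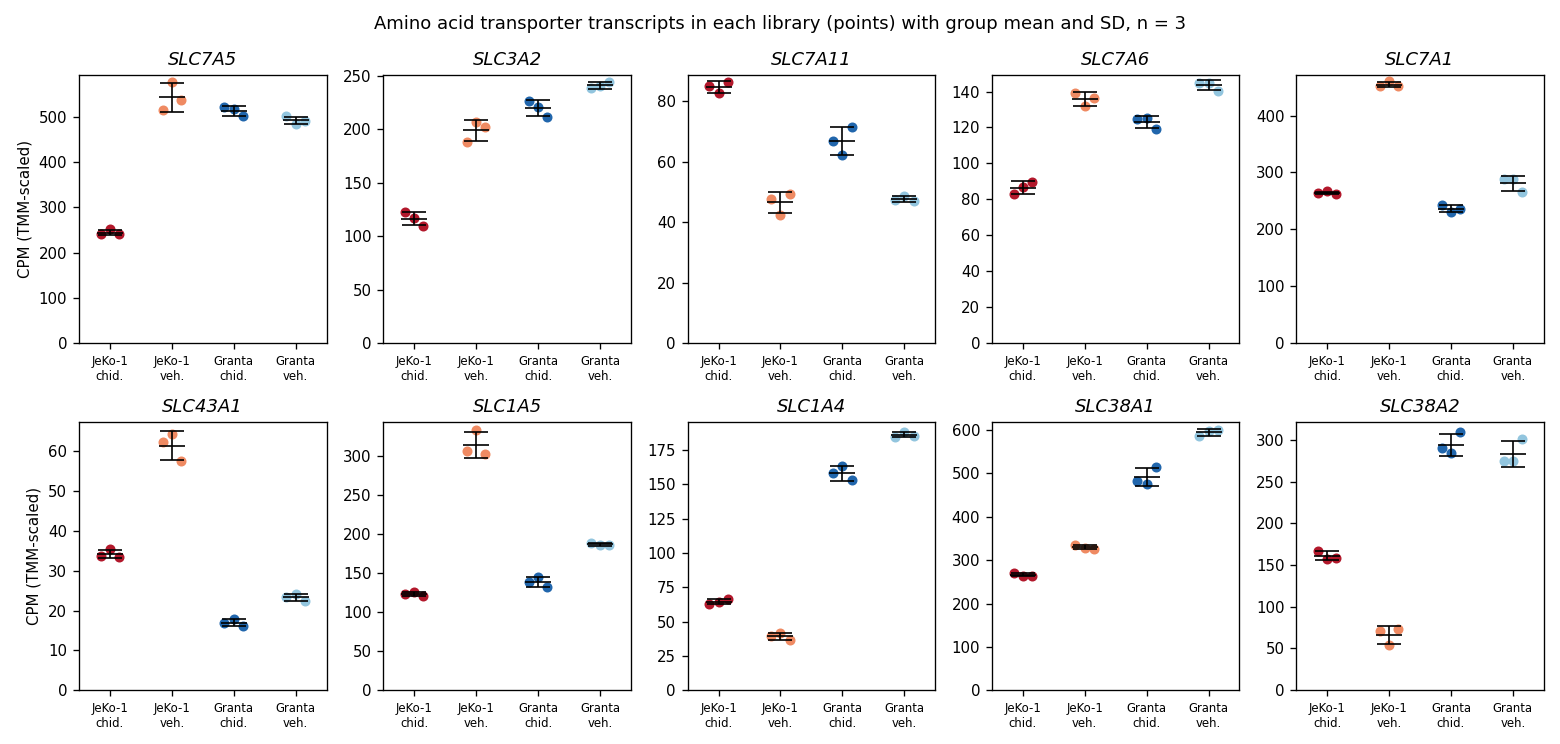
CPM of each transporter gene (vertical axis, starting at 0) in each library (points), with the group mean and SD (bars, n = 3), for JeKo-1 with chidamide and vehicle and Granta-519 with chidamide and vehicle. All 10 genes were separated by treatment in JeKo-1, and SLC7A5 and SLC38A2 overlapped between treatments in Granta-519.

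SLC7A5 encodes LAT1, the light chain for leucine and other large neutral amino acids. In JeKo-1 it had 241.8, 251.6 and 240.4 CPM with chidamide, against 514.3, 575.6 and 537.3 CPM with vehicle. Every chidamide library lay below every vehicle library, a log2 change of -1.15 (SE 0.04, adjusted p = 1.82e-31, edgeR). In Granta-519 it had 522.4, 516.1 and 500.9 CPM with chidamide, against 501.3, 484.9 and 490.1 CPM with vehicle. These groups overlapped, and the log2 change of 0.06 (SE 0.04) had an adjusted p of 0.165 by edgeR. SLC7A5 in Granta-519 passed as higher with upper-quartile scaling (0.16, adjusted p = 5.39e-04), with DESeq2 size factors (0.09, adjusted p = 0.0326), in the DESeq2 test (0.09, adjusted p = 0.0384), without replicate 3 of Granta-519 with chidamide (0.09, adjusted p = 0.0433) and without replicate 2 of JeKo-1 with vehicle (0.07, adjusted p = 0.0477), and had the other sign without the filter on low counts (-0.05) and with the Granta-519 groups alone (-0.01). Its near copies SLC7A5P1 and SLC7A5P2 had 170 to 546 counts per group of 3 libraries, against 3537 or more for SLC7A5 in any single library.

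SLC3A2, also called CD98hc or 4F2hc, is the heavy chain that the light chains share. JeKo-1 with chidamide had 122.5, 117.5 and 110.0 CPM, against 187.7, 207.0 and 202.1 CPM with vehicle. The groups were apart, with a fall of 1.70-fold (log2 change -0.77, SE 0.05, adjusted p = 4.18e-21, edgeR). Granta-519 with chidamide had 226.3, 220.6 and 211.6 CPM, against 238.3, 240.5 and 244.2 CPM with vehicle. The chidamide libraries were again lower (log2 change -0.13, SE 0.04, adjusted p = 0.0062, edgeR). This small fall in Granta-519 did not pass in the DESeq2 test (adjusted p = 0.0614), with upper-quartile scaling (adjusted p = 0.455) or without replicate 3 of Granta-519 with chidamide (adjusted p = 0.0837).

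SLC7A11, or xCT, is the cystine light chain and is known as a target of NRF2 (gene NFE2L2) as well as ATF4. Its 3 libraries of JeKo-1 with chidamide had 85.02, 82.66 and 86.31 CPM, against 47.65, 42.52 and 49.46 CPM with vehicle. It rose 1.82-fold there (log2 change 0.86, SE 0.06, adjusted p = 3.71e-18, edgeR), the opposite direction to its heavy chain. With chidamide Granta-519 had 67.0, 62.37 and 71.59 CPM, against 47.24, 48.79 and 46.99 CPM with vehicle. The rise was 1.41-fold (log2 change 0.49, SE 0.06, adjusted p = 8.22e-10, edgeR), and the groups did not overlap in either line. SLC7A11-AS1, a gene on the opposite strand, had 114 counts in JeKo-1 with chidamide and 40 with vehicle, and 40 counts in Granta-519 with chidamide and 23 with vehicle, summed over 3 libraries. These are far fewer than the 567 or more counts of SLC7A11 in any single library, and the strand setting is not given in the sources used here.

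SLC7A6 is the light chain of y+LAT2, which exchanges cationic for neutral amino acids. It had 82.84, 87.0 and 89.81 CPM in JeKo-1 with chidamide, against 139.4, 131.8 and 136.4 CPM with vehicle. All chidamide libraries were lower, and it fell 1.57-fold (log2 change -0.65, SE 0.05, adjusted p = 2.50e-17, edgeR). In Granta-519 the 3 values were 124.7, 125.5 and 119.0 CPM with chidamide, against 145.0, 145.0 and 140.4 CPM with vehicle. It fell 1.17-fold in that line (log2 change -0.22, SE 0.05, adjusted p = 5.18e-05, edgeR), again without overlap. SLC7A6OS overlaps it on the other strand and had between 350 and 468 counts per group, so part of its reads could be shared.

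SLC7A1, or CAT1, imports arginine and lysine without a heavy chain. JeKo-1 libraries had 264.0, 266.7 and 261.7 CPM with chidamide, against 451.2, 460.0 and 452.1 CPM with vehicle. The replicates were tight, and the fall was 1.72-fold (log2 change -0.78, SE 0.04, adjusted p = 2.02e-24, edgeR). Granta-519 libraries had 243.3, 231.3 and 235.3 CPM with chidamide, against 287.9, 289.2 and 265.7 CPM with vehicle. The fall there was 1.19-fold (log2 change -0.25, SE 0.04, adjusted p = 3.38e-07, edgeR), with no overlap.

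SLC43A1, or LAT3, is a facilitator of large neutral amino acids that needs no heavy chain. It had 33.85, 35.5 and 33.42 CPM in JeKo-1 with chidamide, against 62.41, 64.49 and 57.49 CPM with vehicle. The groups were apart by 1.80-fold (log2 change -0.85, SE 0.07, adjusted p = 8.90e-16, edgeR). It was the lowest of the 10 genes by CPM in Granta-519, with 16.99, 17.87 and 16.13 CPM with chidamide, against 23.39, 24.17 and 22.46 CPM with vehicle. The chidamide libraries were lower by 1.37-fold (log2 change -0.46, SE 0.09, adjusted p = 4.67e-06, edgeR).

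SLC1A5, or ASCT2, exchanges glutamine and other neutral amino acids. Chidamide left 123.2, 126.1 and 120.9 CPM in JeKo-1, against 306.1, 333.3 and 302.0 CPM with vehicle. Its log2 change of -1.35 (SE 0.05, adjusted p = 3.05e-32, edgeR) was the lowest of the 10. For Granta-519 the values were 138.2, 144.4 and 132.1 CPM with chidamide, against 188.2, 186.1 and 185.5 CPM with vehicle. All 3 chidamide libraries were lower than all 3 vehicle libraries in that line too, by 1.35-fold (log2 change -0.43, SE 0.05, adjusted p = 2.78e-12, edgeR).

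SLC1A4, or ASCT1, is the exchanger of alanine, serine, cysteine and threonine most related to SLC1A5. In JeKo-1 it moved the other way from SLC1A5, with 62.51, 64.52 and 66.58 CPM with chidamide, against 39.78, 41.47 and 36.62 CPM with vehicle. That is a rise of 1.64-fold (log2 change 0.71, SE 0.06, adjusted p = 5.64e-16, edgeR). Granta-519 had 157.8, 163.4 and 152.7 CPM with chidamide, against 184.5, 188.0 and 185.2 CPM with vehicle. There it fell 1.18-fold (log2 change -0.24, SE 0.05, adjusted p = 1.68e-05, edgeR), and the groups did not overlap in either line. It was the one gene of the 10 with opposite calls in the 2 lines.

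SLC38A1 and SLC38A2, or SNAT1 and SNAT2, take up glutamine and other small neutral amino acids with sodium. SLC38A1 had 270.7, 264.3 and 264.0 CPM in JeKo-1 with chidamide, against 335.4, 328.0 and 326.2 CPM with vehicle. It fell 1.24-fold (log2 change -0.31, SE 0.04, adjusted p = 7.10e-10, edgeR). In Granta-519 SLC38A1 had 481.8, 476.6 and 514.5 CPM with chidamide, against 585.7, 597.0 and 601.2 CPM with vehicle. The fall of 1.21-fold (log2 change -0.28, SE 0.04, adjusted p = 4.69e-09, edgeR) came without overlap. SLC38A2 had 167.4, 157.0 and 158.9 CPM in JeKo-1 with chidamide, against 71.02, 53.77 and 73.15 CPM with vehicle. Its log2 change was 1.29 (SE 0.08, adjusted p = 1.29e-12, edgeR), the highest of the 10; the lowest vehicle value was that of replicate 2, and without it the change was 1.17. Granta-519 had 290.2, 283.7 and 309.1 CPM of SLC38A2 with chidamide, against 275.0, 274.1 and 301.6 CPM with vehicle. These overlapped, and the log2 change of 0.05 (SE 0.07) did not pass (adjusted p = 0.474, edgeR).

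**Figure D2:**
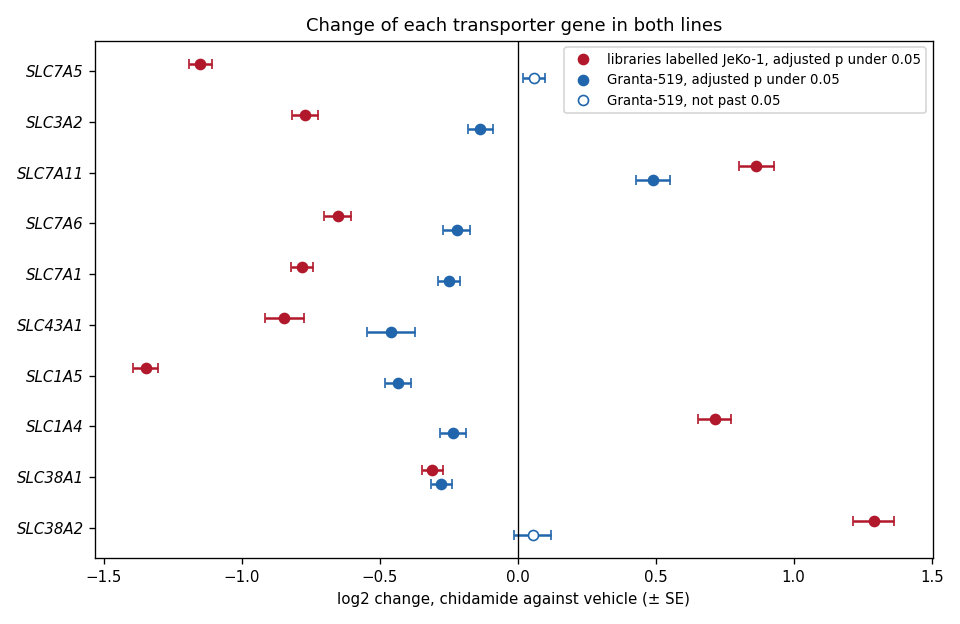
Log2 change with chidamide against vehicle (horizontal axis, ± SE) of each transporter gene in the libraries labelled JeKo-1 and in Granta-519; filled points passed an adjusted p of 0.05 and open points did not. JeKo-1 spans -1.35 (SLC1A5) to 1.29 (SLC38A2), and Granta-519 spans -0.46 (SLC43A1) to 0.49 (SLC7A11).

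Set side by side, 6 genes fell in both lines (SLC3A2, SLC7A6, SLC7A1, SLC43A1, SLC1A5 and SLC38A1) and SLC7A11 rose in both. Taken line by line, 31.1% of tested genes were called lower in JeKo-1 and 31.3% in Granta-519, and 35.3% and 39.6% higher. The shares of tested genes with the same or opposite calls in both lines were not counted, so these counts of genes have no such share beside them. Among tested genes, 66.6% had CPM values that did not overlap between the treatments in JeKo-1 and 73.8% in Granta-519, beside 10 and 8 of the 10 transporters. The drug effect differed between the lines for 9 of the 10 genes, by the test of the difference itself (JeKo-1 minus Granta-519), beside 39.5% of all tested genes. It was higher in JeKo-1 for 3 of them, beside 20.0% of tested genes, and lower for 6, beside 19.5%. These shares cover tested genes of any depth, 599 of them with no count in any JeKo-1 library, which cannot pass. The transporters had 238 counts or more in every library, and shares among genes of like depth were not counted. The difference was -1.21 for SLC7A5 (SE 0.06, adjusted p = 4.55e-25, edgeR) and 1.24 for SLC38A2 (SE 0.10, adjusted p = 1.70e-09, edgeR), the genes that moved in JeKo-1 and did not pass in Granta-519. For SLC1A4 it was 0.95 (SE 0.08, adjusted p = 1.20e-15, edgeR) and for SLC1A5 -0.91 (SE 0.06, adjusted p = 1.08e-17, edgeR). SLC38A1 did not pass, with a difference of -0.03 (SE 0.05, adjusted p = 0.699, edgeR), and its sign turned with library-size scaling (0.10). For SLC43A1 the difference of -0.39 (adjusted p = 0.00399, edgeR) did not pass with library-size scaling (adjusted p = 0.0625) or without the filter on low counts (adjusted p = 0.144).

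Without the drug, several transporters differed between the lines. With vehicle, 4 of the 10 were higher in JeKo-1 than in Granta-519 and 4 were lower, beside 79.8% of all tested genes past the threshold (35.5% higher and 44.3% lower). SLC1A4 was 4.72-fold lower in JeKo-1, with 39.3 ± 2.46 CPM in JeKo-1 and 185.9 ± 1.85 CPM in Granta-519 (SD, n = 3; log2 difference -2.24, adjusted p = 2.35e-40, edgeR). SLC38A2 was 4.30-fold lower, with 65.98 ± 10.6 CPM in JeKo-1 and 283.5 ± 15.6 CPM in Granta-519 (log2 difference -2.10, adjusted p = 4.22e-17, edgeR). Both rose in JeKo-1 with chidamide, and with the drug every JeKo-1 library still lay below every Granta-519 library for both. SLC43A1 was 2.63-fold higher in JeKo-1 (adjusted p = 1.80e-24, edgeR), SLC1A5 1.68-fold (adjusted p = 1.83e-22) and SLC7A1 1.62-fold (adjusted p = 5.85e-23), and SLC38A1 was 1.80-fold lower (adjusted p = 1.27e-27). SLC3A2 was 1.21-fold lower in JeKo-1 (adjusted p = 1.91e-07, edgeR). SLC7A5 was slightly higher (log2 difference 0.14, adjusted p = 0.00112, edgeR), a call that was lost with library-size scaling (adjusted p = 0.95), with upper-quartile scaling (adjusted p = 0.107), without the filter on low counts (adjusted p = 0.48) and by the length-scaled score (adjusted p = 0.935, limma). SLC7A11 did not pass (log2 difference -0.04, adjusted p = 0.62, edgeR), nor did SLC7A6 (log2 difference -0.08, adjusted p = 0.127, edgeR) in this fit. The vehicle libraries of 9 of the 10 genes did not overlap between the lines, beside 79.4% of tested genes; SLC7A11 overlapped.

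Levels of different genes were compared as CPM per kb of exon. SLC7A5 was the highest of the 10 in every group, at 53.3 ± 1.34 in JeKo-1 with chidamide, 118.2 ± 6.75 in JeKo-1 with vehicle, 111.9 ± 2.42 in Granta-519 with chidamide and 107.3 ± 1.83 in Granta-519 with vehicle (CPM per kb, SD, n = 3). Its share of the summed level of the 10 genes was 19.1% in JeKo-1 with chidamide, against 26.0% with vehicle, and 25.1% in Granta-519 with chidamide, against 22.0% with vehicle. SLC7A11 was the lowest in 3 of the 4 groups and overlapped with SLC43A1, the lowest, in Granta-519 with chidamide. In JeKo-1 with vehicle the order was SLC7A5, SLC1A5, SLC3A2, SLC7A1, SLC38A1, SLC43A1, SLC7A6, SLC38A2, SLC1A4 and SLC7A11, and in that order SLC43A1 and SLC7A6 were the neighbours that overlapped. With chidamide the order in JeKo-1 became SLC7A5, SLC3A2, SLC1A5, SLC7A1, SLC38A2, SLC38A1, SLC1A4, SLC7A6, SLC43A1 and SLC7A11. Here SLC1A5 overlapped with SLC7A1, SLC1A4 with SLC7A6, and SLC7A6 with SLC43A1.

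In Granta-519 the order with chidamide was SLC7A5, SLC3A2, SLC38A2, SLC38A1, SLC1A5, SLC1A4, SLC7A1, SLC7A6, SLC7A11 and SLC43A1. SLC1A4 overlapped with SLC7A1 there, and SLC7A11 with SLC43A1. With vehicle SLC38A1 stood before SLC38A2 and SLC43A1 before SLC7A11, and the overlapping neighbours were SLC38A2 with SLC1A5 and SLC1A4 with SLC7A1. The 10 levels summed to 279.8 ± 3.81 CPM per kb in JeKo-1 with chidamide and 455.1 ± 13.1 with vehicle, and to 446.0 ± 3.86 in Granta-519 with chidamide and 488.5 ± 1.49 with vehicle (SD, n = 3). The sums did not overlap between treatments in either line. The order depends on the gene lengths used. By the authors' length-scaled score SLC7A5 was again first in every group, but many other ranks moved. SLC38A1 came 7th in both Granta-519 groups and in JeKo-1 with vehicle. SLC7A1 came 3rd and SLC3A2 4th in both JeKo-1 groups.

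**Figure D3:**
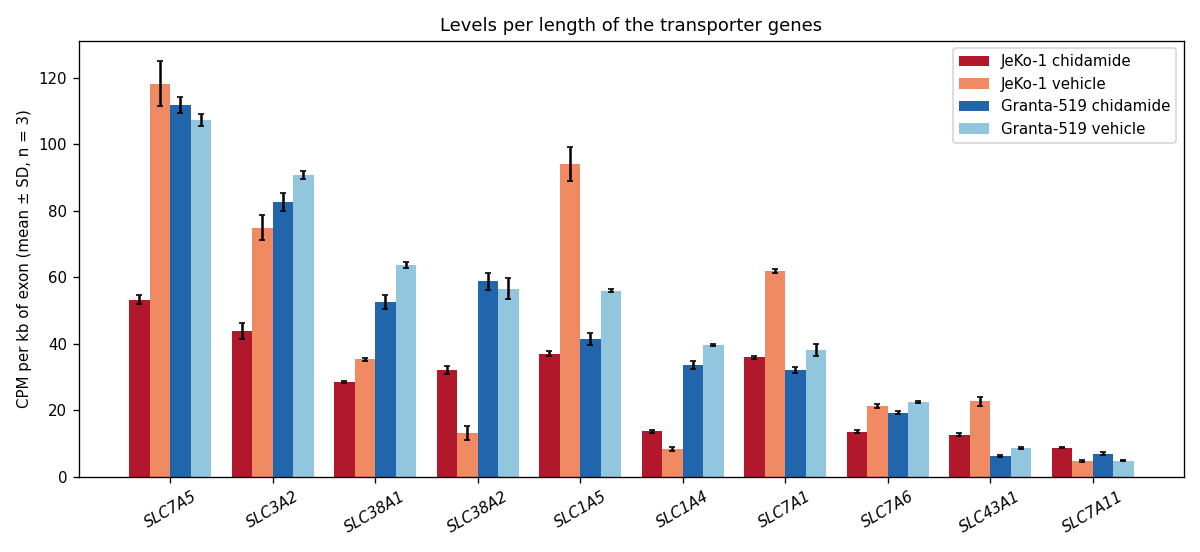
Mean level per length of each transporter gene (vertical axis, CPM per kb of exon, starting at 0; bars ± SD, n = 3) in JeKo-1 with chidamide, JeKo-1 with vehicle, Granta-519 with chidamide and Granta-519 with vehicle. SLC7A5 is the tallest in each group, and in JeKo-1 its bar is 53.3 with chidamide against 118.2 with vehicle.

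Ratios within a library do not depend on how libraries are scaled, and 4 pairs that share a partner or a family were followed. Their level does depend on the gene lengths, while the change between treatments does not. The light chain SLC7A5 had a ratio to the heavy chain SLC3A2, in CPM per kb, of 1.14, 1.24 and 1.26 in JeKo-1 with chidamide, against 1.58, 1.61 and 1.54 with vehicle. In Granta-519 this ratio was 1.33, 1.35 and 1.37 with chidamide, against 1.22, 1.17 and 1.16 with vehicle. It was lower with the drug in JeKo-1 and higher in Granta-519, without overlap. The cystine light chain SLC7A11 had a ratio to SLC3A2 of 0.191, 0.194 and 0.216 in JeKo-1 with chidamide, against 0.0698, 0.0565 and 0.0673 with vehicle. In Granta-519 the ratio was 0.0815, 0.0778 and 0.0931 with chidamide, against 0.0546, 0.0558 and 0.0530 with vehicle. This ratio was higher with chidamide in both lines, by 1.64 and 0.62 on the log2 scale.

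The glutamine transporters of the SLC38 family came close to the same balance in both lines with chidamide. SLC38A1 to SLC38A2 was 0.868, 0.903 and 0.892 in JeKo-1 with chidamide, against 2.54, 3.27 and 2.39 with vehicle. In Granta-519 it was 0.891, 0.902 and 0.893 with chidamide, against 1.14, 1.17 and 1.07 with vehicle. The chidamide values of the 2 lines overlapped, while all 3 vehicle values were higher in JeKo-1. By the authors' length-scaled score this ratio averaged 0.488 in JeKo-1 with chidamide, against 1.504 with vehicle, and 0.492 in Granta-519 with chidamide, against 0.620 with vehicle, so which of the genes was higher in Granta-519 with vehicle depends on the lengths used. SLC1A5 to SLC1A4 was 2.78, 2.75 and 2.56 in JeKo-1 with chidamide, against 10.8, 11.3 and 11.6 with vehicle, a change of -2.06 on the log2 scale. In Granta-519 that ratio was 1.23, 1.24 and 1.22 with chidamide, against 1.44, 1.39 and 1.41 with vehicle, a change of -0.20.

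**Figure D4:**
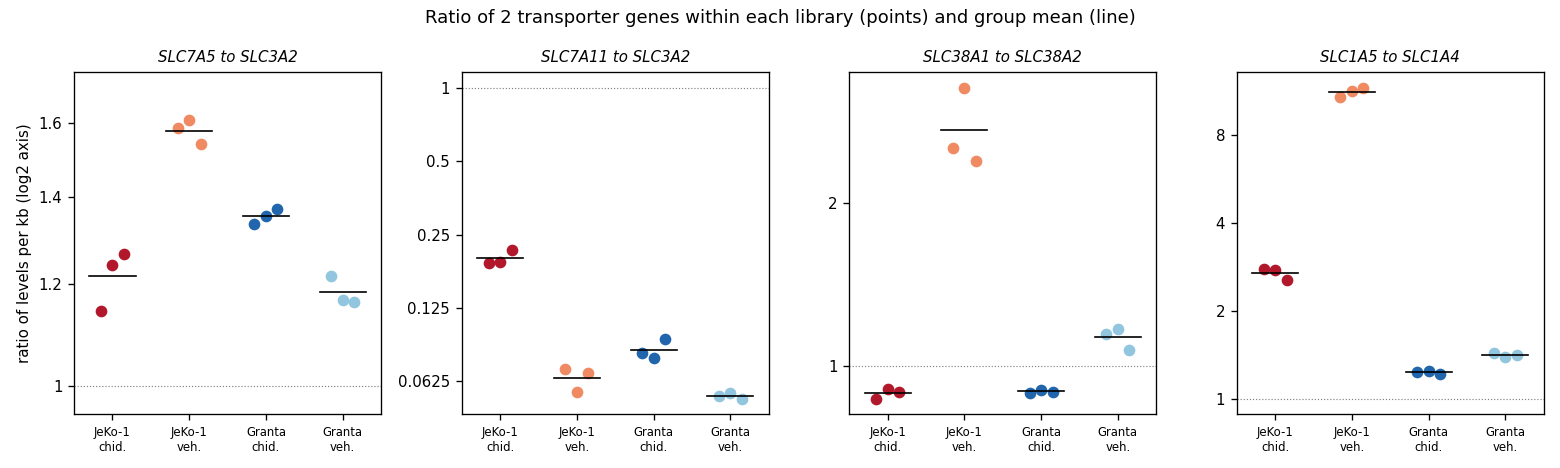
Ratio of the levels per kb of 2 transporter genes in each library (points, log2 vertical axis) with the group mean (line), for 4 pairs in JeKo-1 and Granta-519 with chidamide and vehicle. SLC1A5 to SLC1A4 averaged 2.70 in JeKo-1 with chidamide against 11.3 with vehicle, and SLC38A1 to SLC38A2 averaged 0.888 with chidamide in JeKo-1 and 0.895 in Granta-519.

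The regulators known to act on these genes were read in the same libraries. MYC fell in JeKo-1, to 202.8 ± 5.91 CPM with chidamide, against 329.1 ± 8.48 CPM with vehicle (SD, n = 3; log2 change -0.70, adjusted p = 3.03e-21, edgeR). In Granta-519 MYC rose, with 123.5 ± 3.63 CPM with chidamide, against 85.05 ± 1.03 CPM with vehicle (log2 change 0.54, adjusted p = 4.34e-15, edgeR). ATF4 moved less, by -0.26 in JeKo-1 (adjusted p = 4.57e-08) and 0.15 in Granta-519 (adjusted p = 4.20e-04, edgeR). NFE2L2 did not pass in JeKo-1 (-0.09, adjusted p = 0.274) and was slightly lower in Granta-519 (-0.16, adjusted p = 0.0333, edgeR).

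Promoters were searched for the short sequences these factors bind, on both strands: CACGTG (the E-box bound by MYC among others), TGATGNAA (core of the amino acid response element) and TGACNNNGC (core of the antioxidant response element). RefSeq promoters (GRCh38.p14, 250 bases before to 50 bases after each start) were matched for 9 of the 10 genes, with 16 starts. SLC7A11 had no promoter entry, so it was not searched for any of the motifs. An E-box was at 3 of the 16 starts, beside 7.26% of 35116 promoters. The amino acid response core was at 5 of the 16, beside 3.62%, and the antioxidant core at 5 of the 16, beside 13.3%. For each motif, these starts belonged to different genes. No 2 matches overlapped. The genes with an E-box, SLC1A5, SLC7A5 and SLC43A1, had log2 changes of -1.35, -1.15 and -0.85 in JeKo-1, where MYC fell. In Granta-519, where MYC rose, SLC1A5 and SLC43A1 fell as well (-0.43 and -0.46) and SLC7A5 did not pass (0.06). Searched genes without an E-box also moved in JeKo-1. SLC7A1, SLC3A2, SLC7A6 and SLC38A1 fell (-0.78, -0.77, -0.65 and -0.31), and SLC38A2 and SLC1A4 rose (1.29 and 0.71). The part of MYC in these changes was not tested. The 66 bases around each E-box are shown so that the 3 can be compared, 5′ to 3′ on the minus strand, with the E-box in capitals. They lie at chr19:46787308-46787373 for SLC1A5 (1 of its 3 starts), chr16:87869602-87869667 for SLC7A5 and chr11:57515779-57515844 for SLC43A1 (1 of its 2 starts).
SLC1A5: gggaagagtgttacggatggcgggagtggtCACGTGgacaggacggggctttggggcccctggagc
SLC7A5: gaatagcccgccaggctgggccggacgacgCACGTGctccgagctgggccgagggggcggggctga
SLC43A1: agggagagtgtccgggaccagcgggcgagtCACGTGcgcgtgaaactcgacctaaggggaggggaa
The E-box began 50 bases before the start in SLC1A5, 130 bases before it in SLC7A5 and 112 bases before it in SLC43A1. The amino acid response core was in SLC3A2, SLC7A1, SLC1A5, SLC1A4 and SLC38A1, of which SLC1A4 rose and the others fell in JeKo-1. This core was at 1 of the 3 starts of SLC3A2 and of SLC1A5, and at 1 of the 2 starts of SLC1A4 and of SLC38A1. For SLC1A5 it lay at another start than the E-box and the antioxidant core. For SLC3A2 both cores were at the same start. The antioxidant core was in SLC7A5, SLC3A2, SLC7A6, SLC7A1 and SLC1A5, all of which fell in JeKo-1. Of the searched genes without that core, SLC43A1 and SLC38A1 fell there too, and SLC1A4 and SLC38A2 rose. A match describes the letters only; binding was not measured.

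Other transporters of amino acids moved in both directions. Of 39 listed, 20 were tested and 6 had no count; 4 rose and 9 fell in JeKo-1, and 5 rose and 12 fell in Granta-519. SLC6A17, SLC7A3 and SLC16A10 had no count in any JeKo-1 library, as had 599 of all tested genes, and such genes enter with a change of 0 and cannot pass there. The median log2 change was -0.21 in JeKo-1, or -0.30 over the 17 with a count in that line, and -0.30 in Granta-519. Over all tested genes with a count in the line the medians were 0.08 in JeKo-1 and 0.09 in Granta-519. Of all tested genes, 35.3% were called higher and 31.1% lower in JeKo-1, and 39.6% and 31.3% in Granta-519. These medians and shares stand beside the counts of this list and of each list below. SLC38A5, a glutamine transporter of the SLC38 family, fell in both lines, to 30.2 ± 2.52 CPM in JeKo-1 with chidamide, against 90.2 ± 4.59 CPM with vehicle (log2 change -1.58, adjusted p = 4.57e-28, edgeR). In Granta-519 SLC38A5 had 25.0 ± 0.457 CPM with chidamide, against 62.2 ± 2.42 CPM with vehicle. SLC1A1, a glutamate and cysteine transporter, rose in JeKo-1 (log2 change 0.49, adjusted p = 1.22e-06, edgeR) and in Granta-519, with 8.52 ± 0.891 CPM with chidamide, against 2.78 ± 0.747 CPM with vehicle (log2 change 1.61, adjusted p = 3.09e-13, edgeR). SLC1A2, the glutamate transporter known from astrocytes, also rose, from few counts: over 3 libraries it had 168 counts in JeKo-1 with chidamide and 17 with vehicle. In Granta-519 SLC1A2 had 48 counts with chidamide and 1 with vehicle, a ratio of 50.9 with an exact 95% counting interval of 8.71 to 2051.5.

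Of 28 tested genes of ATF4 and the amino acid response, 10 rose and 12 fell in JeKo-1, and 10 rose and 14 fell in Granta-519. The rises were near the share of all tested genes called higher, 35.3% in JeKo-1 and 39.6% in Granta-519. The falls, 12 and 14 of the 28, stand beside 31.1% and 31.3% of all tested genes called lower. The median log2 change was -0.10 in JeKo-1, or -0.16 without EIF4EBP1, which had no count there, and -0.11 in Granta-519. ATF3, a stress factor related to ATF4, rose in both, with 14.2 ± 1.34 CPM in Granta-519 with chidamide, against 5.99 ± 1.09 CPM with vehicle (log2 change 1.25, adjusted p = 3.14e-11, edgeR). In JeKo-1 ATF3 had 88 counts with chidamide and 7 with vehicle. CTH moved in opposite directions, with a log2 change of -1.20 in Granta-519 (adjusted p = 0.0103, edgeR) and 0.89 in JeKo-1 (adjusted p = 2.01e-05, edgeR). Its Granta-519 libraries had 17 counts with chidamide and 42 with vehicle. ALDH1L2, a mitochondrial folate enzyme, rose in both lines, 4.85-fold in JeKo-1 (adjusted p = 2.40e-08) and 4.64-fold in Granta-519 (adjusted p = 1.44e-16, edgeR). Over 3 libraries it had 120 counts in JeKo-1 with chidamide and 21 with vehicle, and 540 and 123 in Granta-519.

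Of 39 genes that sense amino acids through mTORC1, all tested, 12 rose and 17 fell in JeKo-1, and 6 rose and 23 fell in Granta-519. The median log2 change was -0.12 in JeKo-1 and -0.29 in Granta-519. SESN3, a sestrin that restrains mTORC1, rose in both: to 89.8 ± 1.31 CPM in JeKo-1 with chidamide, against 28.8 ± 2.16 CPM with vehicle, and to 14.1 ± 1.08 CPM in Granta-519 with chidamide, against 1.20 ± 0.324 CPM with vehicle. Its log2 changes were 1.64 (adjusted p = 5.88e-27) and 3.55 (adjusted p = 1.22e-26, edgeR). AKT1S1, which encodes the mTORC1 inhibitor PRAS40, fell 2.40-fold in JeKo-1 (adjusted p = 3.89e-22) and 2.79-fold in Granta-519 (adjusted p = 1.54e-22, edgeR). RRAGD, a Rag GTPase, rose in JeKo-1 with 113 counts with chidamide and 7 with vehicle (log2 change 3.73, adjusted p = 1.12e-11, edgeR), and rose by 0.80 in Granta-519 (adjusted p = 1.08e-12).

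Genes that use cystine and glutathione had 4 higher and 10 lower of 19 in JeKo-1, and 4 higher and 9 lower in Granta-519, with a median log2 change of -0.10 in JeKo-1, or -0.15 without MGST1, which had no count there, and -0.05 in Granta-519. GCLC, the catalytic subunit of the enzyme that begins glutathione synthesis, rose in JeKo-1 beside SLC7A11, with 127.5 ± 1.45 CPM with chidamide, against 61.5 ± 5.07 CPM with vehicle (log2 change 1.05, adjusted p = 2.53e-23, edgeR), and by 0.37 in Granta-519 (adjusted p = 1.64e-06). GCLM, the other subunit of that enzyme, fell in JeKo-1 (log2 change -0.40, adjusted p = 1.23e-05, edgeR). It did not pass in Granta-519 (-0.05, adjusted p = 0.659, edgeR). KEAP1, the adaptor that marks NRF2 for degradation, fell in both lines by 0.81 and 0.80 on the log2 scale (adjusted p = 7.63e-20 and 3.93e-19, edgeR). HMOX1, heme oxygenase, rose 4.54-fold in Granta-519 (adjusted p = 4.34e-24, edgeR) and had 6 counts with chidamide and 3 with vehicle in JeKo-1. GSR fell in both lines, with log2 changes of -0.54 in JeKo-1 and -0.51 in Granta-519 (adjusted p = 2.36e-12 and 1.06e-12, edgeR). NQO1 fell in Granta-519 (log2 change -0.82, adjusted p = 1.42e-07, edgeR) and did not pass in JeKo-1 (-0.30, adjusted p = 0.0522, edgeR). The part of NRF2 in these changes was not tested.

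Of 18 genes that use glutamine, 4 rose and 10 fell in JeKo-1, and 5 rose and 12 fell in Granta-519, with a median log2 change of -0.24 in JeKo-1, or -0.27 without GLUL, which had no count there, and -0.39 in Granta-519. PFAS, an enzyme of purine synthesis, fell to 139.2 ± 4.20 CPM in JeKo-1 with chidamide, against 331.2 ± 9.55 CPM with vehicle (log2 change -1.25, adjusted p = 1.22e-28, edgeR). In Granta-519 PFAS fell by 0.76 on the log2 scale (adjusted p = 6.68e-17, edgeR). GOT1, an aspartate aminotransferase, fell 1.21-fold in JeKo-1 (adjusted p = 1.27e-04) and 1.99-fold in Granta-519 (adjusted p = 1.32e-19, edgeR). Branched-chain amino acid breakdown had 4 of 16 genes higher and 6 lower in JeKo-1, and 1 higher and 10 lower in Granta-519, with a median log2 change of -0.02 in JeKo-1 and -0.27 in Granta-519. BCKDHA, a subunit of the branched-chain ketoacid dehydrogenase, fell in both, by 0.76 in JeKo-1 and 1.13 in Granta-519 on the log2 scale (adjusted p = 2.98e-12 and 1.49e-19, edgeR).

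Arginine and polyamine use had 7 of 19 tested genes higher and 9 lower in each line, with a median log2 change of -0.12 in JeKo-1 and -0.17 in Granta-519. SRM, spermidine synthase, fell in JeKo-1 to 200.2 ± 11.1 CPM with chidamide, against 501.9 ± 49.4 CPM with vehicle (log2 change -1.33, adjusted p = 2.56e-20, edgeR), and in Granta-519 by 0.90 on the log2 scale (adjusted p = 1.06e-15). SAT1, which acetylates polyamines for export and breakdown, rose in JeKo-1 (log2 change 0.82, adjusted p = 6.82e-20, edgeR) and in Granta-519, to 123.7 ± 1.19 CPM with chidamide, against 40.8 ± 3.07 CPM with vehicle (log2 change 1.60, adjusted p = 2.16e-31, edgeR).

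The genes whose pattern over the 4 groups was most like a transporter were found by distance, over 12 libraries. The distance was taken between centred group means of log2 of CPM + 0.5. For genes with few CPM the added 0.5 draws the changes towards 0. CTU2, ZNF341-AS1 and ZCCHC2 were the nearest to SLC7A5, at 0.234, 0.247 and 0.249 log2 units. ZNF341-AS1 had few reads, with 0.0803 CPM in JeKo-1 with chidamide, against 0.603 CPM with vehicle. In Granta-519 it had 0.782 CPM with chidamide, against 0.544 CPM with vehicle. CTU2 had 18.1 CPM in JeKo-1 with chidamide, against 35.7 CPM with vehicle, and 33.8 CPM in Granta-519 with chidamide, against 39.0 CPM with vehicle. CDC37L1-AS1, USP3-AS1 and LINC01410 were the nearest to SLC7A11, at 0.0674, 0.0764 and 0.0779 log2 units. The group means of CDC37L1-AS1 were only 0.339 to 0.888 CPM, and those of USP3-AS1 0.683 to 1.64 CPM. LINC01410 had 13.5 CPM in JeKo-1 with chidamide, against 7.82 CPM with vehicle, and 11.4 CPM in Granta-519 with chidamide, against 7.73 CPM with vehicle.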

How the data were processed

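The authors deposited raw counts for each gene symbol. The aligner was STAR and the build hg19, per the submitters' processing notes. STAR's version, the counting tool, the annotation and the strand setting are not given in the sources used here. Counts of 12 libraries were fitted with edgeR 4.0.16 in R 4.3.3: filterByExpr, TMM scaling, robust glmQLFit with 4 group means (8 residual degrees of freedom) and two-sided glmQLFTest, with Benjamini-Hochberg adjustment over 15087 genes and a threshold of 0.05. Each SE is the size of the log2 change over the root of its F. The fit was also run on simulated data in which few genes changed, and only in JeKo-1 with chidamide. In the real data most tested genes passed in each line, so that run does not test the scaling used here.

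The authors also deposited a length-scaled score, named as TPM; its columns summed to 81790.0 to 84120.5. For values with at least 10 counts, each score was the count divided by 1 constant per gene and by a rounded library total, within a relative 0.0001, and that constant's making is not stated. It was used as an alternative (limma 3.58.1 on log2 of score + 0.1). Another 6 unnamed columns were empty. Levels per kb used GENCODE v29 exon bases, a choice made after seeing the data; ratios and orders are descriptions.

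The transporters and gene lists were chosen with earlier results of these data known. From each list at most the 3 tested genes with the largest change past the threshold per line could be named, and MYC, ATF4 and NFE2L2 always. GCLM was named outside this rule, beside GCLC. Alternatives were other scalings, no filter, the compared groups alone, a replicate block, DESeq2 1.42.0, the score, and each library left out. Replicate numbers did not pair the libraries. Intervals cover counting error only.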

Additional observations from a re-analysis of the deposited data

Results flagged for a closer look

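The chidamide effect differed between the lines for 9 of the 10 transporters, by the test of the difference of the log2 changes (JeKo-1 minus Granta-519, edgeR, adjusted over all tested genes). Lower values in JeKo-1 were -1.21 for SLC7A5, -0.63 for SLC3A2, -0.43 for SLC7A6, -0.54 for SLC7A1, -0.39 for SLC43A1 and -0.91 for SLC1A5. Higher values were 0.37 for SLC7A11, 0.95 for SLC1A4 and 1.24 for SLC38A2. SLC43A1 had the highest adjusted p of the 9, 0.00399. Of all tested genes, at any depth, 39.5% passed the same test, and a share among genes of like depth was not counted.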

How the results depend on the processing

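The calls of all 10 transporters with chidamide in JeKo-1 kept their direction and their side of the threshold in every alternative run. In Granta-519, the number of transporters called higher was 1, against 2 with DESeq2 size factors and 2 in the DESeq2 test, 3 with upper-quartile scaling, and 1 to 2 with each library left out. The values that turned sign were near 0: SLC7A5 in Granta-519 (-0.0479 without the filter, -0.0094 with the compared groups alone), SLC38A2 in Granta-519 (-0.0536 and -0.0149), the SLC38A1 difference (0.11 by score, 0.10 by library size, 0.13 without the filter, 0.0168 by upper quartile), SLC7A5 with vehicle (-0.0038 by score) and SLC7A11 with vehicle (-0.0766 to 0.0154 with each library left out, turned without replicate 2 of JeKo-1 with vehicle). SLC38A2 in Granta-519 passed as higher with upper-quartile scaling (0.15, adjusted p = 0.0332, edgeR). SLC7A11 with vehicle passed as lower in JeKo-1 by library size (adjusted p = 0.0162) and by score (adjusted p = 0.0411, limma). SLC7A6 with vehicle passed as lower in JeKo-1 under 6 alternatives. Over all tested genes, the difference between the lines called 3015 higher and 2941 lower, against 4669 higher and 1733 lower without the filter and 1919 lower with library-size scaling; the cause was not tested. Of the JeKo-1 calls, 53.1% were higher, against 64.9% with upper-quartile scaling, 63.7% by library size and 63.1% by score; of the difference calls, 50.6% were higher, against 70.0% by library size and 72.9% without the filter. Upper-quartile scaling gave a median of all log2 changes of 0.19 in JeKo-1, beside 0.04 with TMM, and library size gave -0.27 in the vehicle comparison, beside -0.13. Replicate numbers did not pair the libraries (r of -0.0256 to 0.0346 for equal numbers); with the replicate block, the transporter calls were 3 higher and 7 lower in JeKo-1 and 1 higher and 7 lower in Granta-519, and the gene calls were 5367 higher and 4776 lower in JeKo-1. Depth limits the genes with few counts named above, not the transporters, whose lowest count was 238.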
